A study of Rattus norvegicus with 8 samples.

Results

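Immediate early genes are transcribed within minutes of a stimulus such as synaptic activity, a growth factor or a hormone, without new protein synthesis. Some of them encode proteins that then restrain the signal or the cell's response: phosphatases that switch MAP kinases off, a kinase that silences CREB coactivators, repressors of the clock and antiproliferative factors. In the hippocampus such transcripts are widely used as readouts of recent neuronal activity and stress, and several are also expressed in blood vessels and glia. The 8 transcripts described here are Btg2 (ENSRNOG00000003300), Klf2 (ENSRNOG00000014205), Dusp1 (ENSRNOG00000003977), Sik1 (ENSRNOG00000001189), Bhlhe40 (ENSRNOG00000007152), Per1 (ENSRNOG00000007387), Dusp6 (ENSRNOG00000023896) and Klf4 (ENSRNOG00000016299). They were chosen by their gene identifiers, out of 26405 in the count table, with their difference between the groups of these same libraries in view. Their levels in the groups are therefore given as a description. How many of them a test across all genes called is stated once, beside the share it called of all identifiers, and is no evidence about them. All 8 were among the 14522 identifiers with enough reads to be tested.

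RNA was sequenced from the right hippocampus of 8 Sprague-Dawley rats, all female and 28 months old. The 4 rats of the IGF1 group had received an adenoviral vector expressing rat IGF-I (insulin-like growth factor I, a trophic peptide hormone) into the cerebral ventricles. The 4 rats of the DsRed group had received the placebo vector, labelled as empty vector DsRed after a red fluorescent protein. Each library came from 1 rat, and all 8 rats were old and vector-injected, so neither age nor the injection itself was compared. The sources used here do not give the promoter of the vector, its dose or the time between injection and dissection.

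The windows upstream of 4 of the genes hold letters of elements known from activity or clock control, and these stretches are shown for that reason. The cAMP response element (CRE) is bound by CREB, the factor whose coactivators Sik1 keeps out of the nucleus, and the E-box is bound by the clock factors that Per1 and Bhlhe40 oppose. Windows from 250 bases before to 50 after a RefSeq start (GRCr8) were at hand for 7 of the 8 genes, all but Klf2. Those of Per1 and Klf4 lay inside the span of their own gene, so they may describe an internal start and are not printed. The starts used for Sik1 and Dusp6 also lay inside the gene span. Of the 250 bases before them, 167 for Sik1 and 148 for Dusp6 were outside it. The stretch printed for Sik1 is from the part outside. Capitals mark the CRE (TGACGTCA) or its shorter form (TGACG), read on either strand, in Btg2, Dusp1 and Sik1, and the E-box (CACGTG) in Dusp1 and Bhlhe40.
Btg2 (chr13:48087841-48087920, minus strand): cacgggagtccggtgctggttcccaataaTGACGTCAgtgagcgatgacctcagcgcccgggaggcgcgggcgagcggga
Dusp1 (chr10:17184663-17184772, plus strand): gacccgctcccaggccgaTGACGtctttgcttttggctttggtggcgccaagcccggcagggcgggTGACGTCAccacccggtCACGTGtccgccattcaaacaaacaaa
Sik1 (chr20:9958807-9958856, minus strand): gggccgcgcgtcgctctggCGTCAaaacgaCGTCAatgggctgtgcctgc
Bhlhe40 (chr4:143174200-143174279, plus strand): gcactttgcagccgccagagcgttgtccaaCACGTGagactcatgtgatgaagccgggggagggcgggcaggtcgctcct

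Btg2 and Dusp1 each had the whole CRE, whose first base lay at -201 and -124 from the start. The whole CRE occurred in 1.83% of the 33469 windows in the reference table. Dusp1 also had a separate short form at -172, and Sik1 had 2 short forms, at -191 and -180, and no whole CRE. At least 1 short form occurred in 21.2% of all windows and at least 2 in 4.96%, where a whole CRE counts as 2 because it reads as the short form on both strands. The E-box stood at -107 in Dusp1 and at -220 in Bhlhe40, and 6.42% of all windows had one. The GC box (GGGCGG), a site for Sp and Krüppel-like factors, was found in the windows of Btg2, Dusp1, Sik1 and Bhlhe40 and in 33.1% of all windows. It overlapped none of the capitalised motifs.

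The remaining searches found little. The TATA box (TATAAA) was matched only in the Klf4 window, at -146 and -78, and in 14.2% of all windows. The AP-1 site (TGANTCA) was in none of the 7 windows and in 7.33% of all. The CArG box, the site of serum response factor, was also in none of the 7, against 1.64% of all windows. Dusp6 and Per1 matched none of the 7 motifs searched. These matches describe letters in short windows and do not show binding.

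**Figure D1:**
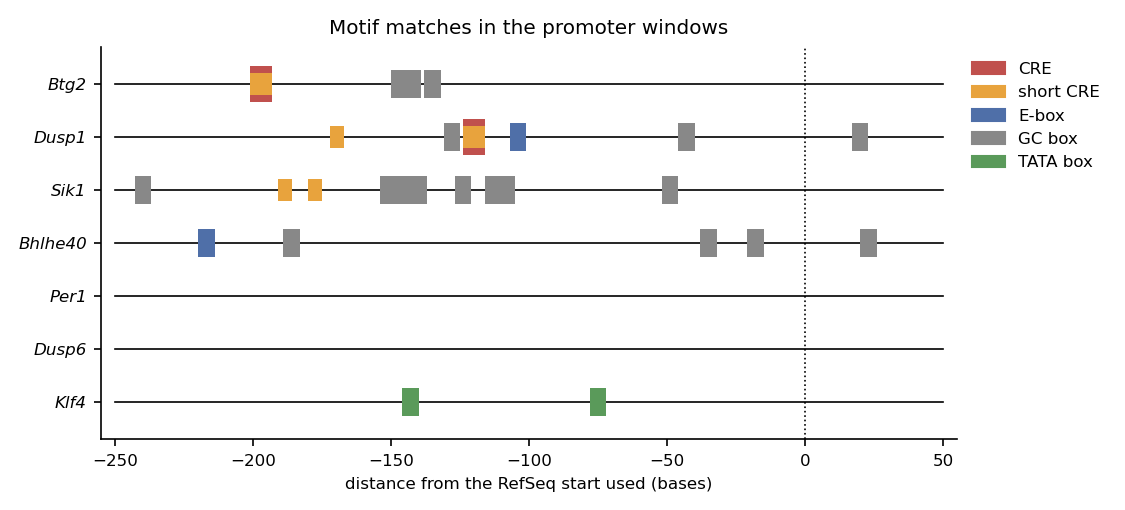
Motif matches along the promoter window of 7 genes, with distance from the RefSeq start in bases on the horizontal axis and 1 gene per line. Bars mark the CRE, its short form, the E-box, the GC box and the TATA box on either strand. The CRE bars of Btg2 and Dusp1 lie at -201 and -124, and Dusp6 and Per1 have no bar. The Per1 and Klf4 windows lie inside their own gene, as do the starts used for Sik1 and Dusp6.

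All 8 transcripts had a lower mean in the IGF1 group, and 48.9% of all identifiers had a fitted level below that of the DsRed group. The median log2 fold change over them was -0.72, against 0.0027 over all 14522 identifiers. In 6 of the 8 every IGF1 library lay below every DsRed library, and 1.97% of all identifiers had groups that did not overlap in that direction. None of the 8, and 2.74% of all identifiers, had groups that did not overlap in the other direction. A fitted level more than 1.5-fold lower in the IGF1 group was found for 5 of the 8 (4 without DsRed replicate 2), and for 0.875% of all identifiers. The threshold of edgeR's quasi-likelihood test, 0.05 after Benjamini-Hochberg adjustment, was passed by no transcript in this set or outside it (0%). Without adjustment 958 identifiers (6.6%) had a p under 0.05, of which 443 (3.05%) were lower in the IGF1 group. Limma voom called 0, edgeR's likelihood ratio test called 10 lower identifiers (0.0689%), 4 of them among these 8, and DESeq2 called 10 lower (0.0601% of 16644), 5 of them among these 8. The 8 were picked from this contrast, so their counts add no support to it. In a whole hippocampus, fewer cells of a type and less RNA per cell cannot be told apart.

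Reads assigned to genes ranged from 16347636 to 27377086 per library, and a two-sided exact permutation test of the group means gave a p of 0.83. IGF1 replicate 1 stood apart, with a mean Spearman correlation across genes of 0.986 to the other 7, where each of those had 0.991 to 0.994. The 10 most abundant identifiers took 15.1% ± 1.38 of the gene reads of IGF1 libraries and 12.6% ± 0.889 of those of DsRed libraries (SD, n = 4 each), with an exact permutation p of 0.0571, or 0.286 after adjustment over 5 library measures. The smallest p possible with these group sizes is 0.0286. Marker transcripts of the hippocampus and of its cell types, and the transcript of the vector's own gene, were not analysed here, so the tissue and group labels were not checked against them.

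Levels are given in CPM, the reads of a gene scaled to the size of the library by edgeR. They depend on transcript length and are compared between libraries, not between genes.

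Dusp1 and Dusp6 encode dual-specificity phosphatases. Dusp1 is nuclear, is induced by stress, activity and glucocorticoids, and acts on p38, JNK and ERK. Dusp6 is cytoplasmic, acts mainly on ERK and is a standard readout of growth factor signalling through ERK. Dusp1 stood at 29.2, 23.2, 39.6 and 41.6 CPM in IGF1 replicates 1 to 4 and at 55.8, 57.8, 57.9 and 68.8 CPM in DsRed replicates 1 to 4. The groups did not overlap, and the IGF1 libraries were the more scattered, with a coefficient of variation of 26.0% against 9.80%. The means were 33.4 ± 8.67 and 60.1 ± 5.89 CPM (SD, n = 4 each). The log2 fold change was -0.85, standard error (SE) 0.16, or a level 44.5% lower.

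Dusp6 was at 33.4, 57.9, 54.4 and 64.3 CPM in IGF1 replicates 1 to 4, and at 72.2, 71.4, 70.2 and 58.7 CPM in DsRed replicates 1 to 4. The groups overlapped, because IGF1 replicate 4 lay above DsRed replicate 4. IGF1 replicate 1, the library that stood apart across all genes, was the lowest for this transcript. The log2 fold change of Dusp6 was -0.38 (SE 0.17) with all libraries, -0.21 without IGF1 replicate 1 and -0.19 without both libraries numbered 1. The nuclear phosphatase thus had separated groups and the cytoplasmic one did not. Whether their differences themselves differ was not tested.

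Sik1 encodes salt-inducible kinase 1, which CREB induces and which phosphorylates the CREB coactivators of the Crtc family and class II histone deacetylases. It had the largest fitted difference of the 8. Sik1 stood at 5.44, 2.78, 4.52 and 4.30 CPM in IGF1 replicates 1 to 4 and at 11.7, 8.01, 9.80 and 11.1 CPM in DsRed replicates 1 to 4. Every IGF1 library lay below the lowest DsRed library. The means of 4.26 ± 1.10 and 10.2 ± 1.64 CPM (SD, n = 4 each) gave a log2 fold change of -1.23 (SE 0.19), 2.35-fold higher in the DsRed group. These values rest on 51 to 227 reads per library, and counting error alone is 14.0% of the level at the smallest of these counts. Of all identifiers tested, 0.151% had a lower log2 fold change.

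Btg2 encodes an antiproliferative protein that promotes shortening of messenger RNA tails and marks neural progenitors about to make neurons. Its level was 17.3, 17.8, 17.7 and 19.4 CPM in IGF1 replicates 1 to 4 and 30.9, 24.9, 34.7 and 31.6 CPM in DsRed replicates 1 to 4. The IGF1 libraries lay close together, with a coefficient of variation of 5.02% against 13.4% in the DsRed group, and DsRed replicate 2 was the nearest to them. Counting error at the 326 to 805 reads per library is 5.54% to 3.52%, so the scatter of the IGF1 libraries was about that of counting alone. The log2 fold change was -0.76 (SE 0.097), or 41.0% lower, the smallest SE among the 5 transcripts more than 1.5-fold lower in the IGF1 group.

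Klf2 and Klf4 encode Krüppel-like zinc finger transcription factors, known for restraining inflammation in the endothelium. Klf4 is also known for limiting the growth of neuronal processes. Klf2 was at 9.71, 7.41, 9.36 and 9.18 CPM in IGF1 replicates 1 to 4 and at 14.8, 20.3, 14.9 and 16.2 CPM in DsRed replicates 1 to 4. The groups did not overlap, and DsRed replicate 2 was the highest. The log2 fold change of Klf2 was -0.89 (SE 0.12), or 46.2% lower.

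Klf4 was at 8.06, 4.90, 4.89 and 5.75 CPM in IGF1 replicates 1 to 4 and at 6.40, 12.3, 9.45 and 9.72 CPM in DsRed replicates 1 to 4. IGF1 replicate 1 lay above DsRed replicate 1, so the groups overlapped, and the other 3 libraries of each group were separate. It had the highest biological coefficient of variation of the 8, at 21.1%, above that of 88.3% of all identifiers. The log2 fold change of Klf4 was -0.68 (SE 0.22), and it was -1.03 without both libraries numbered 1. Leaving out 1 library gave -0.88 (without IGF1 replicate 1) to -0.53 (without DsRed replicate 2), and the latter is less than 1.5-fold lower. Klf4 had 90 to 319 reads per library.

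Per1 and Bhlhe40 encode repressors of the circadian clock that are also induced by activity, and Per1 by glucocorticoids as well. Bhlhe40 was at 66.5, 64.3, 71.8 and 70.4 CPM in IGF1 replicates 1 to 4 and at 83.8, 87.1, 90.8 and 77.5 CPM in DsRed replicates 1 to 4. Per1 was at 75.2, 67.4, 74.4 and 73.9 CPM in IGF1 replicates 1 to 4 and at 85.9, 87.8, 80.4 and 96.9 CPM in DsRed replicates 1 to 4. In both the groups did not overlap, but the gap was narrow: the highest IGF1 and lowest DsRed libraries were 71.8 and 77.5 CPM for Bhlhe40 and 75.2 and 80.4 CPM for Per1. The log2 fold changes were small, at -0.31 (SE 0.061) for Bhlhe40 and -0.27 (SE 0.064) for Per1, levels 19.5% and 17.1% lower. These were the steadiest of the 8, with biological coefficients of variation of 7.07% and 7.40%, and had 1180 to 2281 reads per library. The labels do not give the time of day of dissection.

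**Figure D2:**
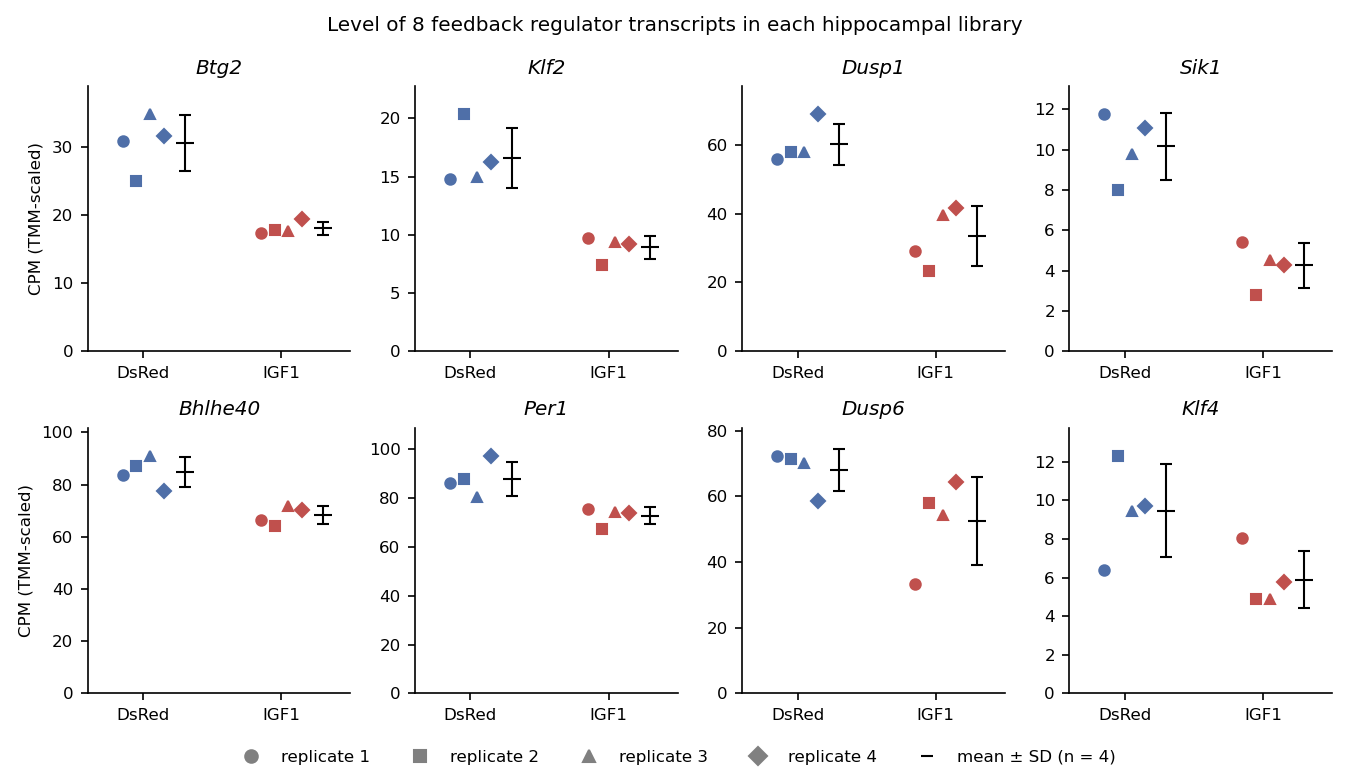
CPM on the vertical axis, from 0, for the 8 transcripts in each DsRed and IGF1 library, with symbols for replicates 1 to 4 and the mean ± SD of 4 libraries beside them. The groups are apart in Btg2, Klf2, Dusp1, Sik1, Bhlhe40 and Per1, and overlap in Dusp6 and Klf4.

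The fitted differences of the 8 are given as a lower and a higher range, a split made after seeing the values and not tested. Sik1, Klf2, Dusp1, Btg2 and Klf4 lay between -1.23 and -0.68, and Dusp6, Bhlhe40 and Per1 between -0.38 and -0.27. The lower 5 had ranks of 23 to 80 from the lowest log2 fold change of all 14522 identifiers, and the other 3 had ranks of 374 to 780. With 1 library left out at a time, Sik1 lay from -1.38 to -1.08, Klf4 from -0.88 to -0.53 and Dusp6 from -0.49 to -0.21. The ranges of Klf4 and Dusp6, on either side of the split, thus nearly met. All 8 stayed below 0. Groups that do not overlap fix that direction in 6 of the 8, so it is no sign of stability.

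**Figure D3:**
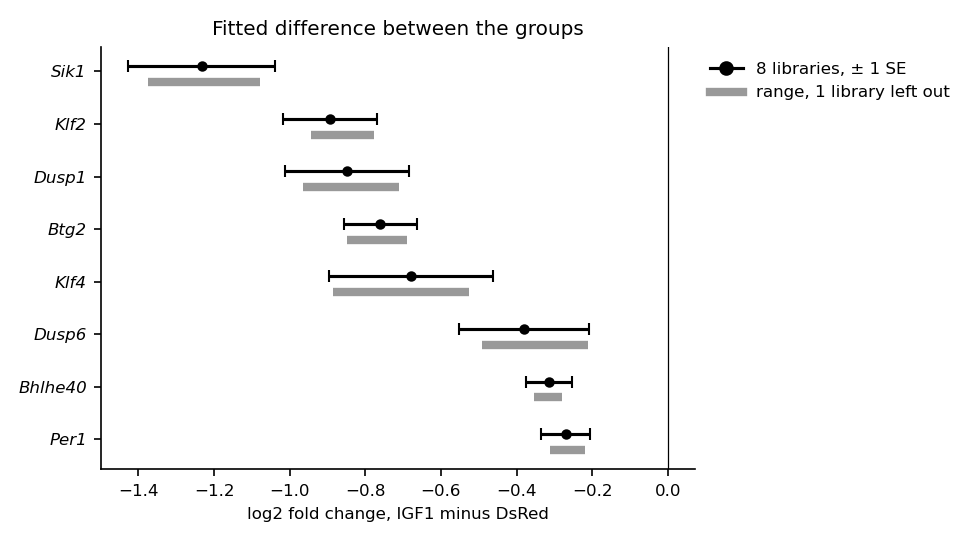
Log2 fold change, IGF1 minus DsRed, on the horizontal axis for each transcript. Points with bars are the fit to 8 libraries ± 1 SE, and grey bars are the range when 1 library is left out. Sik1 is lowest at -1.23 and Per1 nearest to 0 at -0.27.

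**Figure D4:**
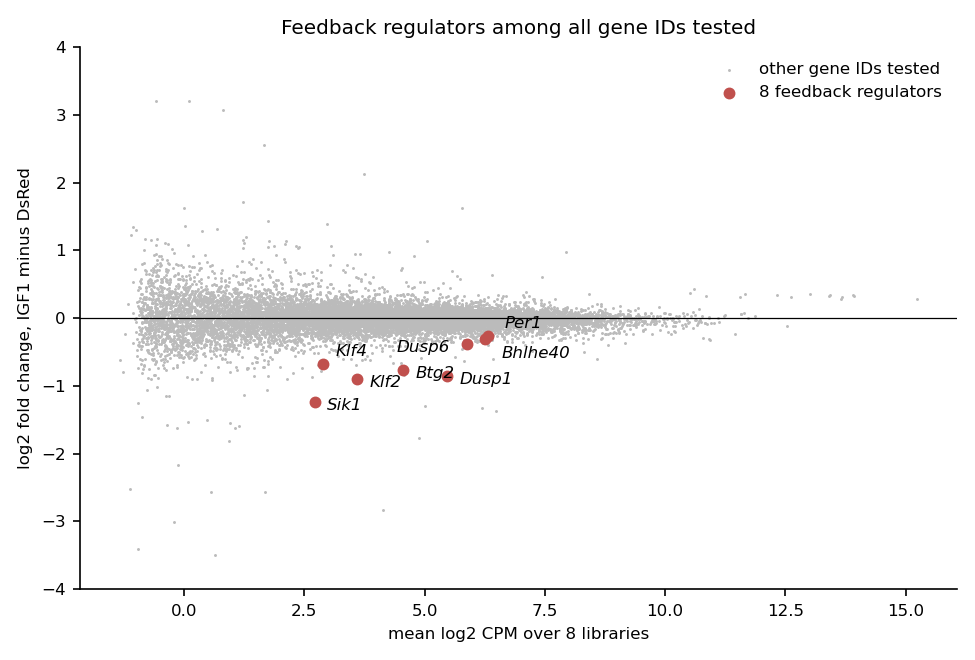
Log2 fold change, IGF1 minus DsRed, against mean log2 CPM over 8 libraries, for all 14522 identifiers (grey) and the 8 transcripts (red). The 8 lie below 0, and other identifiers lie as low or lower.

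The 8 transcripts did not vary as one block within the groups. With the mean of each group removed, Pearson's r between log2 CPM values over the 8 libraries had a mean of 0.0876 over the 28 pairs and ranged from -0.66 to 0.71. It was above 0 in 20 pairs and above 0.5 in 4. These values share libraries and scaling, and are a description over few points. Leaving out 1 library gave a mean between -0.0954 (without IGF1 replicate 2) and 0.179 (without DsRed replicate 2).

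Klf2 and Klf4 were the closest pair, at 0.71, with a range of 0.56 to 0.83 when 1 library was left out. Klf2 had a lower r with 98.3% of the identifiers outside the set than with Klf4. For Klf4, set against its r with Klf2, that share was 96.0%. With group means removed, both also went with the reads assigned to genes per library, at an r of 0.62 for Klf2 and 0.80 for Klf4. The other transcripts lay between -0.58 and 0.30 on that measure. How many of all identifiers have such an r with the reads assigned to genes is not given here. The part of depth in this pair was not tested. Per1 went with Dusp1 (0.61), Sik1 (0.55) and Klf2 (0.53), the other pairs above 0.5. Leaving out IGF1 replicate 2 brought these 3 to 0.35, 0.23 and 0.29. Per1 had a lower r with 94.7% of identifiers outside the set than with Dusp1. For Dusp1, set against its r with Per1, that share was 90.0%. Per1 and Bhlhe40, both clock repressors, had an r of -0.40, which moved between -0.87 and 0.23 when 1 library was left out.

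Some pairs varied in opposite ways. Btg2 and Klf2, both with separated groups, had an r of -0.66. It rested on DsRed replicate 2, the lowest of its group for Btg2 and the highest for Klf2, and was -0.037 without that library. Dusp6 had an r of -0.57 with Klf4 and -0.55 with Sik1. Both rested on IGF1 replicate 1: without it they were 0.00017 and -0.15.

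**Figure D5:**
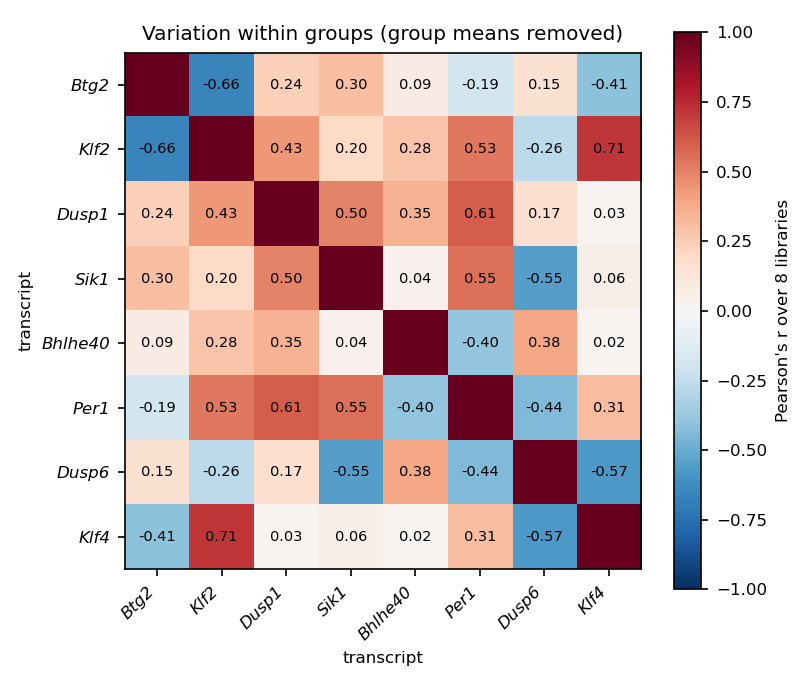
Pearson's r between each pair of the 8 transcripts over 8 libraries, on log2 CPM with group means removed, as colour from -1 to 1 and as numbers. Klf2 and Klf4 have the highest value (0.71) and Btg2 and Klf2 the lowest (-0.66).

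By library, IGF1 replicate 2 was the lowest of its group for 5 of the 8 transcripts and the highest for 0. IGF1 replicate 1 was the highest for 4 and the lowest for 2, and in the DsRed group each library was the highest for 2. Among library measures, the share of the 10 most abundant identifiers had a negative r with all 8 over the 8 libraries, from -0.92 for Dusp1 to -0.58 for Klf4. An r below -0.5 with that share was found for 18.0% of all identifiers tested. This r contains the group difference by which the 8 were picked, so its sign in them is no separate result. With group means removed, r was -0.79 for Dusp1 and between -0.40 and 0.060 for the other 7. In that setting 20.2% of all identifiers had an r below -0.5. Over the 8 libraries the share of reads outside genes also had a negative r with all 8, from -0.77 for Dusp6 to -0.28 for Klf4. That r contains the same group difference. With group means removed, its r was -0.65 for Dusp6 and between -0.27 and 0.51 for the other 7. How many of all identifiers have such an r with the reads outside genes was not computed. The part of either share in the differences was not tested.

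The transcripts most like the 8 were sought by Pearson's r of log2 CPM with the mean z score of the 8 over the 8 libraries. This measure contains the group difference by which the 8 were picked. Of 14514 other identifiers, 20 had an r above 0.9 (0.138%) and 47 an r below -0.9 (0.324%). The most alike was ENSRNOG00000045843, with an r of 0.97 and a small difference, at 174 ± 1.97 CPM in DsRed and 161 ± 1.70 CPM in IGF1 libraries (SD, n = 4 each). Next was ENSRNOG00000007830, also at 0.97, with 57.5 ± 12.3 CPM in DsRed and 16.8 ± 7.13 CPM in IGF1 libraries (SD, n = 4 each). The fitted log2 fold change of ENSRNOG00000007830 was -1.77. Its difference was larger than that of any of the 8. No symbol was paired with either identifier in the sources used here. With group means removed, 60 identifiers had an r above 0.9 and 51 below -0.9.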

How the data were processed

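The deposited table of read counts holds whole-number counts per Ensembl gene ID, with 1 column for each of 8 rats. STAR, HTSeq, edgeR and CASAVA 1.8.2 are listed in the submitters' processing notes. No source used here gives the genome build, annotation or strand handling, so reads of overlapping genes may be split or lost. The 3 summary rows were left out; reads outside genes were 30.7% to 32.9% of those tabulated. A second deposited table holds a linear normalised signal for 13595 IDs, used for 1 alternative on a log2(signal + 1) scale, where changes of low genes appear smaller.

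In R 4.3.3, IDs were kept by filterByExpr (minimum count 10, minimum total 15) and scaled by TMM in edgeR 4.0.16. IGF1 and DsRed were compared by a two-sided quasi-likelihood test (glmQLFit, glmQLFTest) with no covariate. The SE is the log2 fold change over the square root of F. Log2 CPM used a prior count of 2. Library measures were compared by exact permutation. The procedure was tested on simulated data. The alternatives included limma 3.58.1, DESeq2 1.42.0, a likelihood ratio test, other scalings and filters, and leaving out libraries.

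The members, gene lists and tests were chosen with earlier results of these data known. The 8 symbols came with the gene set; 0 IDs matched the RefSeq gene table, so they could not be checked. For the same reason the planned lists of related genes and cell type markers were not analysed here, and of the genes most like the 8 the plan's 5 were limited to the first 2. The rule for named genes was otherwise the 8 members. Over the 28 pairs of libraries chi-square per degree of freedom was 5.74 to 54.1, so no library looked like a second deposit of another. This value cannot show that they came from different rats, which was taken from the sources used here. Each library was counted as a separate sample.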

Additional observations from a re-analysis of the deposited data

Results flagged for a closer look

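The 8 transcripts and 4 library measures were searched for a library far from the rest of its group, 24 sets of 4 libraries, of which chance picks out about 1 in 20. In 3 sets the outermost library was set apart by a gap of 0.837 to 0.855 of the group's range. Dusp1 was 68.8 CPM in DsRed replicate 4, where the other 3 lay at 55.8 to 57.9. Dusp6 was 58.7 CPM in the same library, where the other 3 lay at 70.2 to 72.2, so this library was the highest of its group for one phosphatase and the lowest for the other. Per1 was 67.4 CPM in IGF1 replicate 2, where the other 3 lay at 73.9 to 75.2.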

How the results depend on the processing

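Each of the 8 transcripts kept a negative log2 fold change under all 21 alternatives. The 8 were picked from this contrast, and 6 of them had groups that did not overlap, so this is no sign of stability. Of the alternatives, 2 were chosen after seeing the data: without both libraries numbered 1, and without the 10 most abundant identifiers. The latter rescales all identifiers nearly alike. Leaving out 1 library gave a median of -0.79 to -0.65 over the 8 and 6 to 7 transcripts whose groups did not overlap. Fewer libraries raise that count by construction. The share of all identifiers whose groups did not overlap in those settings is not given here, so nothing is read from the count. No identifier passed the threshold except in edgeR's likelihood ratio test (11) and DESeq2 (13), and leaving out 1 library gave 0 to 1, the 1 being Btg2 without DsRed replicate 2; the cause was not tested. A fit with a replicate block called 0. Correlations of the deviations between libraries with the same number were 0.055, 0.126, 0.244 and 0.134, and 4 of 4 IGF1 and 2 of 4 DsRed libraries correlated best with their own number, a hint of shared variation. The labels give the number no meaning and 1 pair was under the bound of 0.1 used for pairing, so no block was used. The mean correlation over the 28 pairs of transcripts was -0.0954 to 0.179 when 1 library was left out, an alternative added after seeing the data for all but the libraries numbered 1; it reversed only without IGF1 replicate 2. Alternatives on the lists of related genes were not run. Depth limits Sik1 most, at 51 reads in 1 library.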
